A study of Homo sapiens with 6 samples.

Results

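PAX8, PAX2, LHX1, SIM1, HOXB13 and FOXA1 are transcription factors of the kidney and prostate lineages. They were taken by gene symbol from a table of 24551 genes, and values of repeated symbols were summed. All 6 had a value in every library, and 5 of the 6 passed the filter for testing, a mean of at least 1 FPKM. FPKM is the number of fragments scaled to transcript length and to the mapped total of the library, so levels can be compared between genes.

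RNA-Seq was carried out in 769-P cells, a line from a renal cell adenocarcinoma, and in DU145 cells, a prostate carcinoma line from a brain metastasis. Each line was transfected with a control siRNA (NC) or with 1 of 2 siRNAs against SPOP, the substrate adaptor of a CULLIN 3 ubiquitin ligase. There was 1 library per line and siRNA, so 6 libraries in 4 groups, and both siRNA libraries of a line were used as replicates of SPOP knockdown. No sample was left untransfected, and each line stands for 1 tumour, so tissue of origin and line cannot be told apart.

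PAX2 and PAX8 are paired box factors that set up the nephric lineage in the embryo, together with the LIM homeobox factor LHX1. PAX8 often remains on in renal epithelium and in the tumours that arise from it. FOXA1 is a forkhead factor that opens chromatin in prostate luminal cells, and the homeobox factor HOXB13 acts in the prostate and the posterior urogenital tract. SIM1 is a basic helix-loop-helix PAS factor best known from neurons of the hypothalamus, and it pairs with ARNT proteins.

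SPOP itself was lower with each siRNA. It was at 11.6 FPKM in the 769-P NC library and at 1.53 and 1.39 FPKM with siRNA 1 and siRNA 2. In DU145 it was at 16.1 FPKM in NC and at 2.77 and 2.96 FPKM with the siRNAs. The remaining level was 12.0% to 18.4% of the control over the 4 siRNA libraries.

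The libraries differed in depth and in low-level background. Read counts were not used here, and the depth relative to the 769-P NC library was estimated from the low values at 0.683 to 1.40. Of 366 olfactory receptor genes, which epithelial cells do not normally transcribe, 287 had a value above 0 in DU145 NC and 237 in 769-P siRNA 2. In the other 4 libraries 3 to 5 of them did. Their mean was 0.345 FPKM in DU145 NC, 0.227 FPKM in 769-P siRNA 2 and at most 0.00554 FPKM elsewhere. Values of the factors below these means are given beside them.

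The label of each line was checked against epithelial and mesenchymal markers. CDH1, KRT7 and KRT19, which are epithelial genes, were higher in DU145 by 3.80, 4.60 and 7.41 on the log2(FPKM + 1) scale. CDH2, the N-cadherin gene, was lower in DU145 by that measure, with a difference of -6.00. Of 8 such markers, 6 were tested, 4 were higher in DU145 and 2 in 769-P. CDH1 passed the filter only through DU145 and CDH2 only through 769-P. The prostate luminal genes TMPRSS2 and KLK4 were listed at 0 in all 6 libraries. CA9, a hypoxia target common in clear cell renal tumours, was listed at 0 in the 3 769-P libraries. Of 17 markers of blood, endothelial, muscle, liver and neural cells, 1 passed the filter. It was ACTA2, the smooth muscle actin gene. PECAM1, an endothelial marker, and DES, a muscle marker, were listed at 0 in every library. The summed level of the 17 markers was 7.17 to 40.7 FPKM in 769-P and 4.26 to 6.53 FPKM in DU145.

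The first comparison was of the levels in DU145 against 769-P. Of the 5 factors tested, PAX8, PAX2, LHX1 and SIM1 were higher in 769-P and FOXA1 was higher in DU145. Over all 11865 genes tested, 16.1% were called higher in 769-P and 29.4% higher in DU145 by limma at an adjusted p of 0.05. Those higher in DU145 made up 64.6% of the calls, and 48.4% after quantile normalization. The median difference of all genes was 0.16 as deposited and -0.05 after quantile normalization. In these bulk libraries fewer expressing cells and less RNA per cell cannot be told apart.

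PAX8 was the most abundant of the 6 in 769-P. It was at 125 FPKM in NC, 106 FPKM with siRNA 1 and 120 FPKM with siRNA 2. In DU145 it was at 1.10, 1.47 and 1.40 FPKM in the same order. The lowest 769-P library was 71.9 times the highest DU145 library. The means were 117 ± 10.3 FPKM and 1.33 ± 0.195 FPKM (SD, n = 3 libraries each), an 88.4-fold difference. On the log2(FPKM + 1) scale DU145 minus 769-P was -5.67 (SE 0.15, limma adjusted p = 0.000158). In 769-P its mean was above that of 97.7% of all genes, and in DU145 above that of 53.3%.

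PAX2, the close relative of PAX8, followed the same order at a much lower level. It was at 6.42, 6.14 and 4.91 FPKM in the NC, siRNA 1 and siRNA 2 libraries of 769-P. In DU145 it was at 0.141, 0.160 and 0 FPKM. The lines did not overlap, and the lowest 769-P value was 30.8 times the highest DU145 value. The DU145 NC value of 0.141 FPKM lay below the olfactory receptor mean of that library. The difference was -2.63 on the log2(FPKM + 1) scale (SE 0.18, limma adjusted p = 0.000394). Within 769-P, PAX8 was 17.2 to 24.5 times as high as PAX2.

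LHX1, which acts in the nephric duct and in the first nephron structures, was present in both lines. It was at 35.8, 58.3 and 40.3 FPKM in the NC, siRNA 1 and siRNA 2 libraries of 769-P. In DU145 it was at 13.5, 17.5 and 9.80 FPKM. The lines did not overlap, although the lowest 769-P value was only 2.04 times the highest DU145 value. The means were 44.8 ± 11.9 FPKM and 13.6 ± 3.85 FPKM (SD, n = 3 libraries each). The difference was -1.65 (SE 0.27, limma adjusted p = 0.00590). The call was lost, with the direction kept, in 3 alternatives. Without 769-P siRNA 1 the difference was -1.45 (limma adjusted p = 0.0609). With no filter on low values it was again -1.65 (limma adjusted p = 0.0511). Between the NC libraries alone, 1 against 1 with the spread of the siRNA libraries, it was -1.34 (limma adjusted p = 0.111).

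SIM1 was low in 769-P and at or near 0 in DU145. It was at 1.95, 6.22 and 6.87 FPKM in the NC, siRNA 1 and siRNA 2 libraries of 769-P. In DU145 it was at 0.238, 0.0807 and 0 FPKM. The lines did not overlap, and the DU145 NC value was below the olfactory receptor mean of that library. The difference was -2.32 (SE 0.16, limma adjusted p = 0.000414). Between the NC libraries alone, 1 against 1, it was -1.25. The limma adjusted p of 0.0371 for that value rests on the spread between the siRNA libraries. PAX2 and SIM1 passed the filter on the mean only through 769-P, so a difference between the lines was built into their selection for testing.

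FOXA1 had the opposite order. It was at 33.5, 18.2 and 31.9 FPKM in the NC, siRNA 1 and siRNA 2 libraries of DU145. In 769-P it was at 3.05, 2.74 and 3.01 FPKM, a narrow range well above the olfactory receptor mean. The lowest DU145 library was 5.94 times the highest 769-P library. The means were 27.9 ± 8.45 FPKM and 2.93 ± 0.170 FPKM (SD, n = 3 libraries each), a 9.50-fold difference. On the log2(FPKM + 1) scale it was 2.83 (SE 0.25, limma adjusted p = 0.000807).

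HOXB13 was at or near 0 in both lines. It was at 0, 0 and 0.105 FPKM in the NC, siRNA 1 and siRNA 2 libraries of 769-P, and at 0.127, 0.107 and 0 FPKM in DU145. The lines overlapped, and the gene was under the filter with a mean of 0.0565 FPKM. The values in 769-P siRNA 2 and DU145 NC were below the olfactory receptor means of those libraries. When limma was run with no filter, the difference was 0.06 with an adjusted p of 0.579. The neighbouring prostate and rectum genes PRAC1 and PRAC2 were listed at 0 in all 6 libraries.

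**Figure D1:**
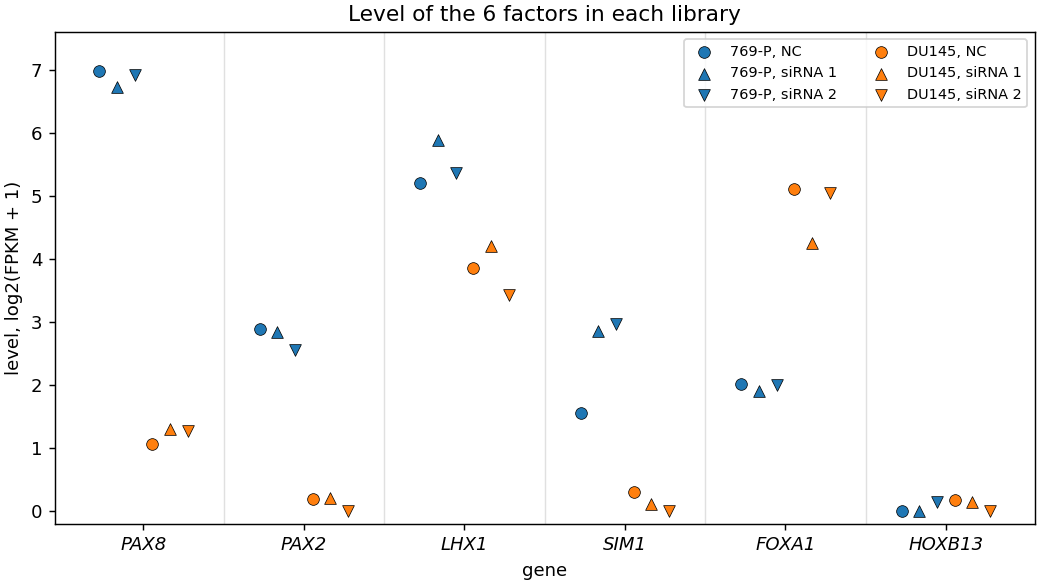
Level of each of the 6 factors in the 6 libraries, as log2(FPKM + 1), with 1 point per library and symbols for the control and the 2 SPOP siRNAs. PAX8 lies at 106 to 125 FPKM in 769-P and at 1.10 to 1.47 FPKM in DU145, FOXA1 has the opposite order, and HOXB13 lies at or near 0 in both lines.

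**Figure D2:**
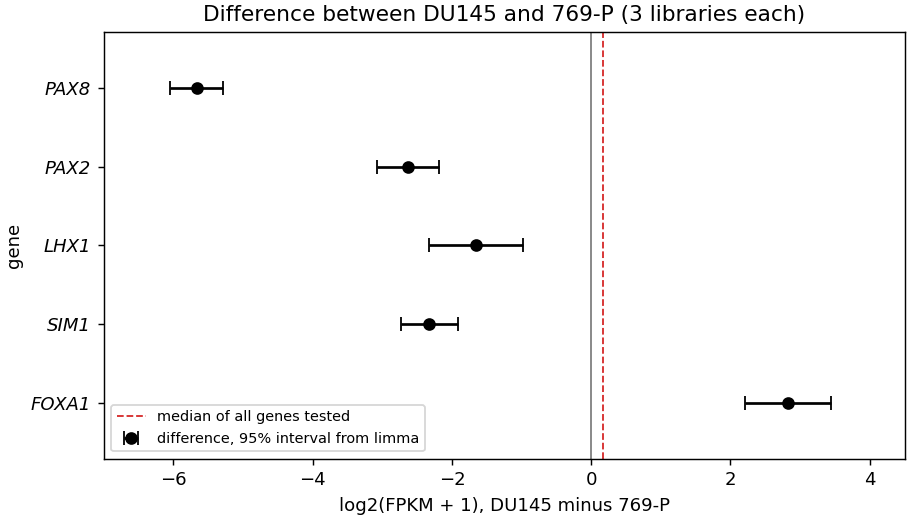
Difference between the lines in log2(FPKM + 1), DU145 minus 769-P, for the 5 factors tested, with 95% confidence intervals from limma over 6 libraries and a dashed line at the median of all genes tested (0.16). Only FOXA1 (2.83) is above 0, and PAX8 (-5.67) is the farthest below it.

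The order of the factors differed between the lines. By the mean of the 3 libraries it was PAX8, LHX1, PAX2, SIM1, FOXA1 and HOXB13 in 769-P. The range of SIM1 overlapped those of PAX2 and FOXA1, and its place changed with treatment. In NC, SIM1 (1.95 FPKM) was below FOXA1 (3.05 FPKM) and PAX2 (6.42 FPKM). With each siRNA, SIM1 was above both. In DU145 it was FOXA1, LHX1, PAX8, SIM1, PAX2 and HOXB13, and the ranges of the last 3 overlapped. PAX8 was 38.6 to 41.1 times FOXA1 in the 769-P libraries and 0.0329 to 0.0810 times FOXA1 in the DU145 libraries. FOXA1 and LHX1 were closest in DU145 siRNA 1, where FOXA1 was 1.04 times LHX1, and farthest apart in siRNA 2 at 3.26 times.

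The promoters of PAX8, SIM1 and FOXA1 are shown because these genes gave the highest level in 769-P, the largest change with the siRNAs and the highest level in DU145. Each runs from 250 bases before to 50 bases after a RefSeq start site in GRCh38.p14, on the strand of the gene. The PAX8 window is chr2:113278872-113279171 on the minus strand. The SIM1 window is chr6:100464872-100465171 and the FOXA1 window is chr14:37595200-37595499, both also on the minus strand. Capitals mark CCAAT, the letters bound by the general factor NF-Y, on either strand.
PAX8 promoter: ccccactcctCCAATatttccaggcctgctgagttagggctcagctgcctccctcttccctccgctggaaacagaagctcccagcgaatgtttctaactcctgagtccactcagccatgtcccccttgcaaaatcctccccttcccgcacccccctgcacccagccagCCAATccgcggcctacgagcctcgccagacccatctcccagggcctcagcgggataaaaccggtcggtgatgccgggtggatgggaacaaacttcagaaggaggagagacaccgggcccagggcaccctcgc
SIM1 promoter: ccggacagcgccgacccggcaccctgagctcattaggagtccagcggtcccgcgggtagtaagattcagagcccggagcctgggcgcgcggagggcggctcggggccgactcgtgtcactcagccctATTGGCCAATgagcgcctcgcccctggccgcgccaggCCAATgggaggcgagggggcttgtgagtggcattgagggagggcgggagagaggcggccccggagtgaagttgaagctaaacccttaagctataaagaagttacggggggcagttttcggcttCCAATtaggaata
FOXA1 promoter: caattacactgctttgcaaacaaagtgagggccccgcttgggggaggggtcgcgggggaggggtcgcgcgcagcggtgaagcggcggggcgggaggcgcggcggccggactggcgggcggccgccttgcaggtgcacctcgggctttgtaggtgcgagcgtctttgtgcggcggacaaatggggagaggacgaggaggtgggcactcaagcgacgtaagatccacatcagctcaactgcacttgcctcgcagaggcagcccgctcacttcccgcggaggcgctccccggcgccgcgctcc
RefSeq gives SIM1 a second start, with its window at chr6:100464407-100464706, which is not printed and holds CCAAT 0 times, TATAAA 0 times and GGGCGG 1 time. In the windows printed, CCAAT or its reverse was found 2 times in the PAX8 window, 4 times in the SIM1 window and 0 times in the FOXA1 window. In the printed SIM1 window 1 reverse and 1 forward copy lie directly side by side and form a palindrome. Of 35116 RefSeq promoters of that length, 34.6% hold CCAAT on either strand. The printed SIM1 window also holds TATAAA 1 time and GGGCGG 2 times, which 11.5% and 45.0% of all promoters hold. FOXA1 holds GGGCGG 2 times. The ratio of observed to expected CpG was 0.483 for PAX8, 0.834 for SIM1 and 0.966 for FOXA1, against a median of 0.579 over all promoters. The forkhead core TGTTTAC and the homeodomain core TAATTA were searched on both strands, and these letters are not in the 3 windows. They occur in 3.42% and 4.84% of all promoters. A match of letters is a description of the sequence and not evidence of binding. 4 of the 6 factors had an entry, and LHX1 and HOXB13 did not.

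Genes beside or across the factors were read in the same libraries, with positions in GRCh37. PAX8 lies on chromosome 2 at 113973574 to 114036498 on the minus strand. The long noncoding gene PAX8-AS1 runs across it on the plus strand over 60585 bases. PAX8-AS1 was at 10.2, 13.0 and 6.04 FPKM in the NC, siRNA 1 and siRNA 2 libraries of 769-P. In DU145 it was at 0.730, 1.13 and 2.80 FPKM, so the lines did not overlap. The strand setting of the counting is not given in the sources used here, and reads of PAX8 and PAX8-AS1 may not have been told apart. PSD4, 6601 bases away on the other side, was higher in DU145 NC (2.40 FPKM) than in 769-P NC (0.395 FPKM).

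PAX2 lies on chromosome 10 at 102495153 to 102589701 on the plus strand, and its neighbours HIF1AN and MRPL43 were expressed in both lines. LHX1 lies on chromosome 17 at 35294084 to 35301912 on the plus strand. AATF, a regulator of transcription and cell survival 4313 bases from LHX1, was at 65.3 FPKM in 769-P NC and 72.8 FPKM in DU145 NC. SIM1 lies on chromosome 6 at 100832885 to 100912797 on the minus strand. Its neighbour ASCC3, a helicase gene, was at 8.01, 10.9 and 8.26 FPKM in the NC, siRNA 1 and siRNA 2 libraries of 769-P, and did not follow the pattern of SIM1. HOXB13 lies on chromosome 17 at 46802125 to 46806112 on the minus strand, and PRAC2, on the plus strand, ends 5 bases from it. FOXA1 lies on chromosome 14 at 38058757 to 38065264 on the minus strand. MIPOL1, 10427 bases from it, was at 0.526 FPKM in 769-P NC and 0.689 FPKM in DU145 NC.

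The second comparison was of SPOP knockdown against NC within each line. With 1 NC library per line, the spread came from the difference between the 2 siRNAs. By limma, 0 of the 5 factors tested passed an adjusted p of 0.05 in either line. Of all genes, 0.101% passed it in 769-P and 0.135% in DU145. SPOP, at 12.0% to 18.4% of NC, did not pass it either (limma adjusted p = 0.0948 in 769-P and 0.134 in DU145). A factor that did not pass is therefore not shown to be unchanged. At an unadjusted p of 0.05, 1 factor passed in 769-P (SIM1) and 0 in DU145, against 6.97% and 6.27% of all genes.

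SIM1 had the largest change of the 6 factors in 769-P. It was at 319% of NC with siRNA 1 and 352% with siRNA 2, and both values lay above NC. The mean of the siRNA libraries was 6.55 ± 0.457 FPKM (SD, n = 2) against 1.95 FPKM in the single NC library. The change was 1.35 on the log2(FPKM + 1) scale (SE 0.24, 95% interval 0.74 to 1.96). The unadjusted p was 0.0020, and the limma adjusted p was 0.546, with a range of 0.342 to 0.955 over the alternatives. SIM1 was past 2-fold upward with both siRNAs, as were 0.657% of all genes. 769-P siRNA 2 is a library with raised olfactory receptor values, and with siRNA 1 alone the change was 1.29. ACTA2 was past 2-fold with both siRNAs as well, at 6.67 FPKM in NC and 40.0 and 22.1 FPKM with the siRNAs. Its part in the SIM1 value was not tested.

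In DU145 the SIM1 values were 0.238, 0.0807 and 0 FPKM, and the change was -0.25 (SE 0.24, limma adjusted p = 0.886). With the olfactory receptor mean subtracted from each library it was 0.05. Subtracting the 769-P change from the DU145 change gave a value of -1.60 (SE 0.34, 95% interval -2.47 to -0.74). Its unadjusted p was 0.0045 and its limma adjusted p 0.999. Of all genes, 2.74% passed an unadjusted p of 0.05 for this difference and 0.169% the adjusted threshold, which none of the 5 factors passed.

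The other renal factors changed by less than SIM1 did in 769-P, and some moved the same way with both siRNAs. PAX8 changed by -0.25 and -0.06 with the siRNAs in 769-P (limma adjusted p = 0.898) and by 0.23 and 0.19 in DU145 (adjusted p = 0.900). In FPKM, PAX8 in DU145 was at 133% and 127% of NC, a change that the log2(FPKM + 1) scale understates at so low a level. PAX2 changed by -0.06 and -0.33 in 769-P (limma adjusted p = 0.888) and by 0.02 and -0.19 in DU145 (adjusted p = 0.974). LHX1 was higher than NC with both siRNAs in 769-P, by 0.69 and 0.17 (limma adjusted p = 0.821). In DU145 it was above NC with siRNA 1 (0.35) and below it with siRNA 2 (-0.42), and the limma adjusted p was 0.994.

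FOXA1 in DU145 was at 54.1% of NC with siRNA 1 and at 95.2% with siRNA 2. The siRNAs therefore differed from each other more than siRNA 2 differed from NC. Their mean change was -0.46 (SE 0.37, limma adjusted p = 0.866). In 769-P the changes were -0.12 and -0.02 (limma adjusted p = 0.985). None of PAX8, PAX2, LHX1 and FOXA1 passed 1.5-fold the same way with the 2 siRNAs of either line. Over all genes 7.32% did in 769-P and 5.91% in DU145, and 0.995% passed 2-fold in DU145.

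**Figure D3:**
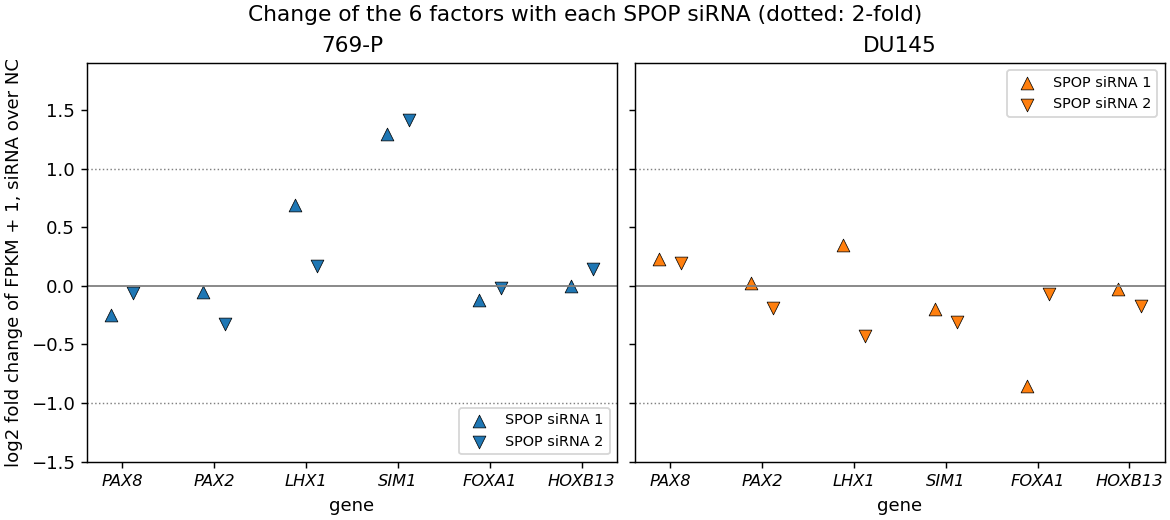
Change of each of the 6 factors in log2(FPKM + 1) with each SPOP siRNA against the control siRNA of its line, 1 point per siRNA library. SIM1 in 769-P (1.29 and 1.41) is past 2-fold with both siRNAs, and FOXA1 in DU145 is below 0 by 0.85 with siRNA 1 and by 0.07 with siRNA 2.

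Other factors of the kidney lineage did not all follow PAX8. Of 32 renal lineage factors, 15 were tested, of which 7 were higher in 769-P, 5 were higher in DU145 and 3 passed in neither direction. Their median difference was -0.56, against 0.16 for all genes. The filter on the mean over both lines shaped this count, since 4 of the 15 passed it only through 769-P and 3 only through DU145. Of the 8 with a mean of at least 1 FPKM in each line, 3 were higher in 769-P and 3 in DU145. Over all genes tested, 16.1% were higher in 769-P and 29.4% in DU145, shares that also belong beside the counts of the lists below. They are not given for genes at 1 FPKM or more in each line. HNF4G, a nuclear receptor, was at 4.90 to 10.6 FPKM in 769-P and 0.0801 to 0.236 FPKM in DU145, with a difference of -2.87. EPAS1, which encodes the hypoxia factor HIF-2α, was instead at 0.561 to 1.20 FPKM in 769-P and 13.4 to 27.5 FPKM in DU145. TFAP2A, a factor of the distal nephron and of skin, was also higher in DU145, by 2.93. WT1, SALL1, IRX3 and IRX5, named after their values were seen, were also higher in 769-P. HNF4G, WT1, SALL1 and IRX5 passed the filter only through 769-P, and EPAS1 only through DU145, so their differences were built into their selection.

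Genes of nephron signalling and tubule function were read next. Of 32, 8 were tested, of which 6 were higher in 769-P and 1 in DU145, and the median difference was -2.65. The filter on the mean over both lines shaped this count, since 4 of the 8 passed it only through 769-P and 1 only through DU145. Of the 3 with a mean of at least 1 FPKM in each line, 2 were higher in 769-P and 0 in DU145. The brush border peptidase gene ANPEP was at 96.3 to 136.6 FPKM in 769-P and 1.33 to 1.71 FPKM in DU145. GGT1, which encodes gamma-glutamyl transferase, differed by -5.16. The water channel gene AQP1 and the kidney cadherin gene CDH6 differed by -3.03 and -2.88. In this list and in the renal lineage factors, 0 genes passed limma's adjusted threshold with SPOP siRNA in either line. At an unadjusted p of 0.05, 2 renal lineage factors passed in DU145 and 0 in 769-P, and 1 gene of nephron signalling and tubule function passed in each line. With 6.97% of all genes past that threshold in 769-P and 6.27% in DU145, lists of this size are read as counts only.

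Factors of the prostate lineage were read in the same way. Of 26, 13 were tested, of which 9 were higher in DU145 and 0 in 769-P, and the median difference was 1.57. Here 4 of the 13 passed the filter only through DU145 and 1 only through 769-P. Of the 8 with a mean of at least 1 FPKM in each line, 5 were higher in DU145 and 0 in 769-P. Over all genes tested, 29.4% were higher in DU145 and 16.1% in 769-P, and no share is given for such a subset. PITX1, a hindlimb factor, was at 43.3 to 128.5 FPKM in DU145 and 0.270 to 0.883 FPKM in 769-P. GATA2, a zinc finger factor, was at 7.05 to 8.92 FPKM in DU145 and at most 0.147 FPKM in 769-P. The ETS factor gene ETV4 was higher in DU145 by 3.36. None of the 13 passed an unadjusted p of 0.05 with SPOP siRNA in limma in either line.

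Luminal genes of the prostate were divided. Of 25, 23 had a value and 9 were tested, of which 5 were higher in DU145 and 1 in 769-P, and the median difference was 1.13. Of the 7 with a mean of at least 1 FPKM in each line, 3 were higher in DU145 and 1 in 769-P. FKBP5 and AMACR were not analysed here. STEAP1, STEAP2 and KRT18 were higher in DU145 by 3.43, 1.84 and 1.13. STEAP1 and STEAP2 passed the filter only through DU145, so a difference between the lines was built into their selection. PMEPA1, which is induced by TGF-β, was higher in 769-P, with a difference of -2.48. CD24, a surface glycoprotein gene, was at 23.7 FPKM in DU145 NC and at 50.3 and 104.8 FPKM with the siRNAs, past 2-fold with both. In this list 0 genes passed limma's adjusted threshold in either line, and 2 of the 9 passed an unadjusted p of 0.05 in DU145, against 6.27% of all genes.

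Relatives of the factors in the PAX, LIM homeobox, SIM and forkhead families did not move as a block. Of 29, 9 were tested, of which 4 were higher in DU145 and 2 in 769-P, and the median difference was 0.28. All 6 of these passed the filter through 1 line only, and the 3 with a mean of at least 1 FPKM in each line passed in neither direction. FOXC2, a mesenchymal forkhead factor, was at 41.4 to 80.4 FPKM in 769-P and at 1.67, 0.202 and 0 FPKM in the NC, siRNA 1 and siRNA 2 libraries of DU145. It was down past 2-fold with both siRNAs in DU145, where NC carried an olfactory receptor mean of 0.345 FPKM. The neural factors ISL2, NPAS1 and LHX2 were higher in DU145 by 1.71, 1.62 and 1.55. None of the 9 passed limma's adjusted threshold with SPOP siRNA in either line, and 4 passed an unadjusted p of 0.05 in DU145, against 6.27% of all genes.

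Known protein partners of the factors were expressed in both lines. Of 24, 23 had a value and 18 were tested, of which 6 were higher in DU145, 3 were higher in 769-P and 9 passed in neither direction. Over all genes tested, 29.4% were higher in DU145 and 16.1% in 769-P, so these counts are near the shares of all genes. The median difference of the list was 0.18, close to that of all genes, and ARNT2 was not analysed here. TLE1, a corepressor that PAX and forkhead factors recruit, was at 45.1 to 68.6 FPKM in 769-P and 12.0 to 15.0 FPKM in DU145. TLE3, a second corepressor of that family, was higher in DU145 by 1.25. MEIS3 and PBX3, homeobox cofactors of HOX proteins, were higher in DU145 by 1.74 and 1.31, and MEIS3 passed the filter only through DU145. None of the 18 passed an unadjusted p of 0.05 with SPOP siRNA in limma in either line.

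**Figure D4:**
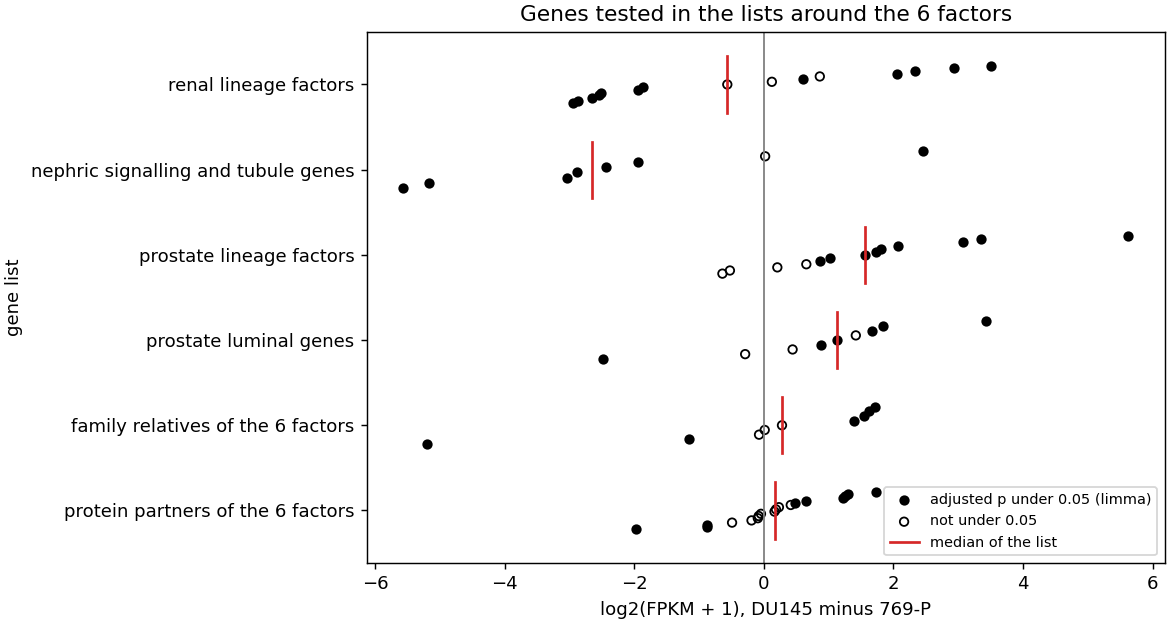
Difference between the lines in log2(FPKM + 1), DU145 minus 769-P, for each tested gene of 6 gene lists, 1 point per gene, filled where the limma adjusted p was under 0.05, with a red line at the median of each list. The median is -2.65 for nephric signalling and tubule genes and 1.57 for prostate lineage factors, against 0.16 for all genes tested.

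The genes whose levels were most like each factor were found by Pearson's r of log2(FPKM + 1) over the 6 libraries. With 3 libraries from each line, r is high for any gene that differs between the lines, and it is given as a description. For PAX8 they were C12orf75 (r = 0.9998), C1orf186 (0.9996) and VAV3 (0.9993), a guanine nucleotide exchange factor gene at 28.5 to 33.9 FPKM in 769-P. For PAX2 they were TUSC1, SNX4 and GNG5, and for LHX1 they were STAG3L2, TXNL4A and ZNF428. For FOXA1 they were CNNM1, HIST1H2BL and USP44, and 1228 genes had an r over 0.95 with it. The number was 821 for PAX8, 782 for PAX2, 331 for LHX1 and 238 for SIM1.

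The genes most like SIM1 also varied within 769-P. They were picked for a high r with SIM1 over these same libraries, so this follows from the selection and adds no support. SULF2, which encodes an extracellular sulfatase, had an r of 0.9972 with it. SULF2 was at 1.43, 4.24 and 4.90 FPKM in the NC, siRNA 1 and siRNA 2 libraries of 769-P. CRYAB, a small heat shock protein gene (r = 0.9946), was at 1.89, 6.80 and 9.32 FPKM in the same libraries. PLEKHO1 had the same r and a smaller range, 12.6 to 17.3 FPKM in 769-P.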

How the data were processed

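Polyadenylated RNA of 6 libraries was sequenced. The paper's methods give paired-end reads from an Illumina sequencer, TopHat2 with at most 2 mismatches against hg19, and Cufflinks. They speak of 2 biological replicates, whereas the labels show 1 library per siRNA and line. Reads were checked with FastQC and trimmed. The labels add cutadapt and name another library kit than the methods. Tool versions, annotation and strand setting are not given in the sources used here.

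The authors deposited FPKM values, 1 per gene and library. No counts are given, so the depth behind a value is unknown, no count test was run and intervals come from limma alone. The files held 26006 entries, and summing repeated symbols gave 24551 genes. Those averaging at least 1 FPKM were tested on log2(FPKM + 1) with limma 3.58.1 in R 4.3.3, with 4 groups, 2 residual degrees of freedom, a trend in eBayes and Benjamini-Hochberg adjustment over 11865 genes. Fold changes on this scale understate the change of low genes. The p-values of this fit measure only the spread between the 2 siRNA libraries of each line. That spread includes any difference between the siRNAs and may be technical in part. The script was tested on simulated data. Other steps used pandas 2.3.3 and numpy 2.4.6 under Python 3.11.15.

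Named genes were SPOP, the 6 factors, up to 4 genes per list with the largest difference between lines that passed and did not overlap, any list gene past 2-fold with both siRNAs, the 3 genes most like each factor, and the nearest neighbours. Some of these genes are not reported here. The factors and the 8 lists were chosen with earlier results of these data known. Positions are from GENCODE on GRCh37 and promoters from RefSeq on GRCh38.p14. Alternatives were a pseudocount of 0.1, no filter, a minimum of 5 FPKM, quantile normalization, subtraction of the olfactory receptor mean, a replicate block, no trend, line alone, subsets of libraries and leaving out each library.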

Additional observations from a re-analysis of the deposited data

Results flagged for a closer look

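In the values as deposited, PAX8 and SIM1 moved in opposite directions in the lines with both SPOP siRNAs. PAX8 was below NC in 769-P and above it in DU145, and the difference between the lines, DU145 minus 769-P, was 0.37 on the log2(FPKM + 1) scale (SE 0.32, limma adjusted p = 0.999). SIM1 was above NC in 769-P and below it in DU145, and the difference was -1.60 (SE 0.34, limma adjusted p = 0.999). Neither passed the adjusted threshold. The SIM1 values in DU145 were at most 0.238 FPKM, below the olfactory receptor mean of the NC library. With that mean subtracted from each library, the SIM1 changes in DU145 were 0.10 and 0, so no longer below NC. The PAX8 change in 769-P with siRNA 2 was only -0.06, and -0.00087 with fold changes centred on the median.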

How the results depend on the processing

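The direction of the line difference held for PAX8, PAX2, LHX1, SIM1 and FOXA1 under every alternative run, and the call held except for LHX1, with adjusted p-values of 0.0511 to 0.111 where it was lost. PAX2 had values of -5.00 to -2.56, SIM1 of -4.62 to -1.25, and PAX8 of -6.37 to -5.54. None of these 5 passed with SPOP siRNA under any alternative. The following changes turned direction. In DU145 the PAX2 change was 0.052 after quantile normalization, 0.10 after subtraction of the olfactory receptor mean and -0.19 to 0.023 with a library left out. That of LHX1 was -0.42 to 0.35 with a library left out, and that of SIM1 was 0.052 after subtraction. In 769-P the FOXA1 change was 0.0084 after quantile normalization. The difference between lines for PAX2 was -0.36 with a pseudocount of 0.1 and -0.028 to 0.25 with a library left out. The causes were not tested.

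Of all genes, 5395 differed between the lines. The count was 3537 at a minimum of 5 FPKM, 2122 for the NC libraries alone, and 3040 to 5066 when a library was left out. With SPOP siRNA in DU145 it was 16 genes, against 678 with no filter, 4 at 5 FPKM and 0 to 30 with a library left out. In 769-P it was 12, against 6 with no filter and 0 to 7 with a library left out. For the difference between lines it was 20, against 0 with a pseudocount of 0.1, 326 with no filter, 3 at 5 FPKM, 10 after quantile normalization, 8 with the replicate block and 0 to 37 with a library left out.

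Past 2-fold with both siRNAs in DU145 were 118 genes, against 320 with a pseudocount of 0.1, 185 after subtraction, 64 at 5 FPKM, 538 for siRNA 1 alone and 384 for siRNA 2 alone. Past 1.5-fold were 701, against 1132, 1140 with no filter, 440 at 5 FPKM, 2308 and 1787. In 769-P they were 145 at 2-fold, against 436, 92 at 5 FPKM, 567 and 299. At 1.5-fold they were 869, against 1489, 573 at 5 FPKM, 2388 and 1723.

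The siRNA numbers are shared by the lines. The difference of siRNA 2 minus siRNA 1 correlated at 0.27 between the lines over 11865 genes. Whether a number marks the same siRNA sequence in both lines is not given in the sources used here, and 2 numbers are too few for the check of pairing. With the replicate block the counts were 6310 between the lines, 18 with siRNA in DU145, 14 in 769-P, and 8 between the changes. The block changed no call of a factor. The depth behind FPKM values is unknown, so values of PAX2, SIM1 and HOXB13 near 0 in DU145 have no stated precision.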
